A study of Mus musculus with 24 samples.

Results

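The classical cadherins and the non-clustered protocadherins were followed through the cell types of the mouse amygdala in 2 inbred strains. Genes were taken by symbol, Cdh or Pcdh followed by a number alone, from the RNA count table of 34039 genes. Of 34 such genes, 30 had at least 10 counts in each strain and form the set described here. Cdh3, Cdh17, Cdh26 and Pcdh12 fell below that minimum, with 42 and 7, 11 and 8, 12 and 8, and 12 and 5 counts in BL6 and DBA. By family the set holds the type I cadherins Cdh1, Cdh2, Cdh4 and Cdh15, 13 type II cadherins from Cdh5 to Cdh24, the atypical Cdh13 and Cdh16, the long cadherins Cdh23 and Pcdh15, and the protocadherins Pcdh1, Pcdh7, Pcdh8, Pcdh9, Pcdh10, Pcdh17, Pcdh18, Pcdh19 and Pcdh20.

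Nuclei came from the microdissected amygdala of adult male BL6 and DBA mice aged 10 to 16 weeks, inbred animals with no transgene or treatment named in the labels. Each strain had 2 RNA and 2 ATAC libraries, called library 2 and library 3 of each strain as in the deposited data. Each library pooled about 2 animals, so pooled libraries were compared and not single animals. An exact permutation test of 2 against 2 cannot go below 0.333, so the tests are models fitted across all genes or peaks. These models take part of the spread of a gene or peak from the others. A small p-value therefore does not come from the spread of its own libraries alone. One assay read the RNA of single nuclei and counted it by gene, and the other, ATAC, used a transposase to mark open chromatin and counted it by peak. The authors summed both by cell type, and the types keep their names, in which Exc-, Inh- and NN- mark excitatory, inhibitory and non-neuronal clusters.

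Cadherins are membrane proteins whose extracellular repeats bind calcium and then bind cadherins on the neighbouring cell. Classical type I and type II members hold their tails to actin through catenins, and cells that carry the same cadherins tend to adhere, which in the brain is known to bear on how neurons group and where synapses form. Delta protocadherins adhere more weakly, signal through other partners, and are known for cell sorting, axon growth and synapse remodelling.

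Levels are CPM, the counts of a gene scaled to a fixed total per column, given as mean ± SD over the 4 libraries unless a strain is named. They are not scaled to gene length, so 1 gene is compared across types and never with another gene. The RNA libraries held 30693629 to 66304405 counts and the ATAC libraries 66535381 to 86927891. Tests were made in types with at least 10 nuclei and enough counts in all 4 libraries, 20 of 22 in RNA and 16 in ATAC. Nuclei of NN types made up 30.1% to 53.0% of an RNA library and 1.81% to 2.97% of an ATAC library, so accessibility of glia rests on few nuclei. The type names went with markers in most cases: oligodendrocyte genes summed to 13974 CPM in NN-ODC, precursor genes to 2130 CPM in NN-OPC, microglial genes to 5024 CPM in NN-MGC and astrocyte genes to 2584 CPM in NN-Astro. In NN-Endo-VLMC a part of the name did not, as endothelial genes summed to 5.05 CPM, with Cldn5, Flt1, Slco1a4 and Ly6c1 at 0 counts. Genes of vascular leptomeningeal cells (VLMC) summed there to 357 CPM, against 1999 CPM in NN-VLMC. Foxp2 and Tshz1, listed here as markers of intercalated neurons, summed to 1555 CPM against 1917 CPM in Inh-Tshz1. Inhibitory genes summed to only 63.0 CPM against 536 CPM in Inh-Tshz1.

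The 30 genes were highest in 14 different types, and 16 of them were highest in a type named non-neuronal against 14 in a neuronal one. For 3 of the 16, Cdh1, Cdh11 and Pcdh7, that type was NN-Endo-VLMC, and without it, a choice made after seeing its markers, the tally was 14 against 16. Of the type I cadherins, Cdh2, the N-cadherin of neural tissue, was highest in NN-ODC at 841 ± 60.2 CPM, and its libraries there (781 to 906 CPM) lay above those of every other type, Exc-Ebf2 coming next at 438 ± 30.0 CPM. Cdh4, the R-cadherin of retina and brain, was highest in Exc-Tfap2c at 732 ± 288 CPM, where library 2 of DBA was at 313 CPM and the other 3 libraries at 773 to 933 CPM. The libraries of 5 other types overlapped with those. Cdh1, the E-cadherin of epithelia, stood at 147 ± 67.5 CPM in NN-Endo-VLMC, from 10 to 34 counts a library, and next at 13.1 ± 9.49 CPM in NN-VLMC. Cdh15, the M-cadherin of muscle, reached only 2.37 ± 3.09 CPM in Inh-Drd2, and its libraries overlapped with those of all 19 other types.

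Of the type II cadherins, 7 were highest in a neuronal type. Inh-Tshz1 was the highest type for Cdh8 at 402 ± 118 CPM and for Cdh22 at 86.1 ± 3.32 CPM. For Cdh8 the libraries of 6 other types reached into that range, and for Cdh22 those of 3. Cdh12 was highest in Inh-Sst at 279 ± 44.2 CPM, and Inh-Lypd6b did not differ beyond its spread at 271 ± 99.1 CPM. Cdh18 reached 1442 ± 119 CPM in Inh-Zfhx3, with 4 other types overlapping, and was lowest in NN-Astro at 34.3 CPM. Cdh9, known for the wiring of specific neuron pairs, was highest in Exc-Tafa1 at 361 ± 80.8 CPM, and Exc-Tfap2c overlapped with it at 330 ± 83.8 CPM. Cdh7 was highest in Inh-Drd2 at 154 ± 62.1 CPM, with libraries of 4 other types in its range.

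Cdh24 was high in a single interneuron type among those tested. It stood at 38.0 and 42.0 CPM in Inh-Lamp5 of BL6 and at 37.0 and 40.8 CPM in Inh-Lamp5 of DBA, from 18 to 33 counts a library. The next type, Inh-Nxph2, had 10.8 ± 2.03 CPM, so the libraries of Inh-Lamp5 overlapped with those of none of the other 19 types. In the same Inh-Lamp5 nuclei Cdh8 was at its lowest of the 20 types, 15.4 ± 11.4 CPM.

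The other 6 type II cadherins were highest in types named non-neuronal. Cdh19, a cadherin known from glia of the peripheral nerve, stood at 426 ± 101 CPM in NN-ODC and at 152 ± 56.4 CPM in NN-Astro, with a median of 1.18 CPM over types. Cdh20 was highest in NN-ODC at 737 ± 210 CPM and next in NN-Astro at 528 ± 30.5 CPM, and among neurons Inh-Lamp5 stood out at 333 ± 71.6 CPM over a median type of 55.2 CPM. Cdh6 was highest in NN-OPC at 173 ± 17.9 CPM, above all libraries of Inh-Tshz1 at 117 ± 26.6 CPM. Cdh10 was highest in NN-Astro at 818 ± 90.6 CPM, with NN-OPC at 705 ± 59.7 CPM. Cdh11, the OB-cadherin of mesenchyme, was highest in NN-Endo-VLMC at 356 ± 134 CPM and next in Inh-Htr3a at 238 ± 16.0 CPM. The first of these types had VLMC markers but few endothelial ones, as given above. Cdh5, the VE-cadherin that joins endothelial cells, was at 125 ± 41.3 CPM in NN-VLMC and 105 ± 19.6 CPM in NN-Endo-VLMC, with a median of 0.204 CPM over types, although endothelial markers summed to 5.05 CPM in the second of these types and to 264 CPM in the first. In NN-Endo-SMC-Peri, which had too few nuclei to be tested, Cdh5 stood at 83.2 ± 22.5 CPM.

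Cdh13, or T-cadherin, which lacks a cytoplasmic tail and sits on a lipid anchor, was highest in Inh-Tshz1 at 793 ± 75.3 CPM, with 2 other types overlapping. Cdh16, a kidney cadherin, stayed near 0 and reached 1.93 ± 3.87 CPM in NN-VLMC from a single library. Cdh23 and Pcdh15 form the tip link between the hairs of inner ear sensory cells, and in the amygdala they were highest in different types. Cdh23 stood at 481 ± 52.6 CPM in NN-MGC and at 365 ± 135 CPM in Exc-Tfap2c, with a median of 3.41 CPM over types. Pcdh15 stood at 4180 ± 308 CPM in NN-OPC, with all libraries between 3881 and 4606 CPM, and next at 1618 ± 119 CPM in Inh-Lypd6b.

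Among the delta-1 protocadherins, Pcdh9 was highest in NN-ODC at 12164 ± 1881 CPM and next in NN-OPC at 5656 ± 276 CPM, against 338 CPM in NN-MGC. Pcdh7 was highest in NN-Endo-VLMC at 1957 ± 934 CPM and 6 other types overlapped, among them Exc-Ebf2 at 1783 ± 282 CPM. Pcdh1 was nearly even, with 50.4 ± 18.7 CPM in Exc-Ebf2 and 13 other types overlapping. Among the delta-2 protocadherins, Pcdh19, an X-linked gene known from an epilepsy syndrome, was highest in Inh-Tshz1 at 166 ± 4.52 CPM. So was Pcdh8, the activity-regulated arcadlin, at 68.6 ± 11.1 CPM, and for each of these genes 2 other types overlapped. Pcdh10 was highest in NN-Astro at 338 ± 25.8 CPM, above all libraries of the other 19 types. Pcdh17, known for the grouping of synapses along basal ganglia axons, was highest in NN-OPC at 416 ± 11.8 CPM. Exc-Tfap2c overlapped with it at 353 ± 97.8 CPM. Pcdh18 reached 23.1 ± 11.2 CPM in Inh-Sst, and Pcdh20 reached 15.5 ± 3.08 CPM in NN-OPC, each with 2 other types overlapping.

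**Figure D1:**
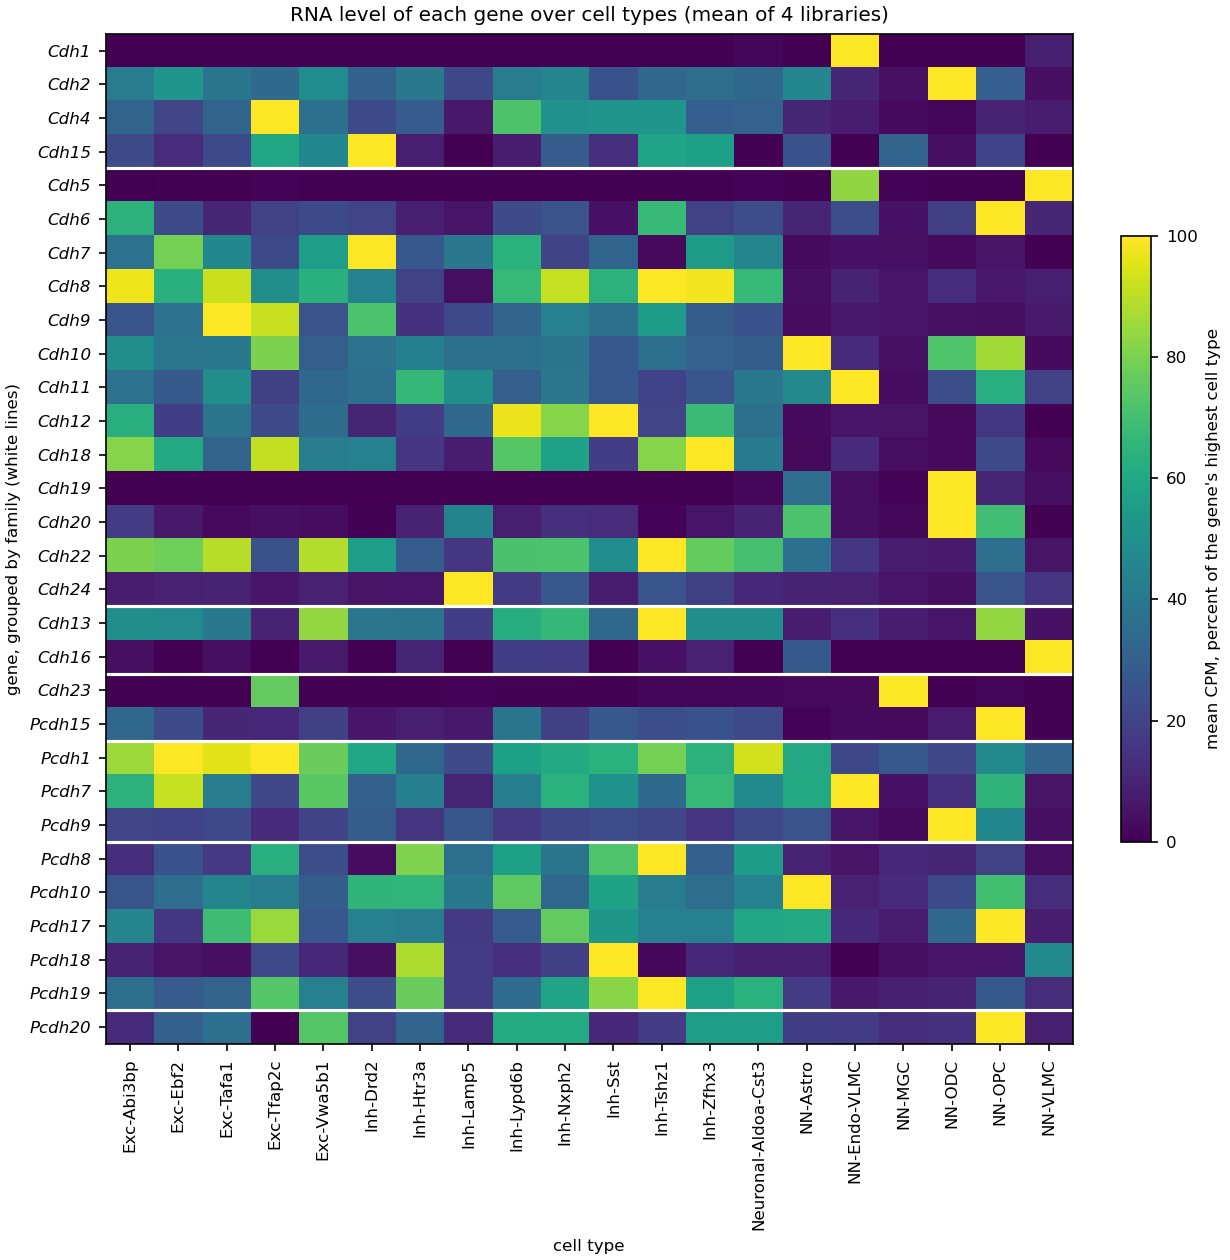
RNA level of the 30 genes (rows, grouped by family between white lines) in 20 cell types (columns), as the mean CPM of 4 libraries in percent of the gene's own highest type. Cdh1, Cdh5, Cdh19, Cdh23 and Cdh24 are bright in 1 or 2 columns only, while Pcdh1, Cdh8 and Cdh22 are bright across many neuronal columns.

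Genes of different families shared patterns over types. Over 20 types, the Pearson correlation of log2(CPM + 1) was highest for Cdh10 with Cdh2 (0.883), Cdh13 with Cdh22 (0.866), Cdh4 with Pcdh19 (0.852), Cdh18 with Cdh8 (0.849) and Cdh2 with Pcdh9 (0.846). The lowest was that of Cdh19 with Cdh9 (-0.832), a pair that splits glia from neurons. These values describe 20 means that share the same libraries and depth. The highest type was the same in both strains for 21 of 30 genes. It differed for Cdh4, Cdh7, Cdh8, Cdh15, Cdh16, Cdh18, Cdh22, Pcdh1 and Pcdh7, all of them genes whose top type overlapped with at least 2 others.

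The strains were then compared, DBA minus BL6, to ask which cadherins differ between them over the tissue and in which cells. Over all nuclei none of 29 genes tested differed by edgeR's quasi-likelihood test with Benjamini-Hochberg adjustment, while 4.88% of all genes did. At an unadjusted p under 0.05 there were 3, Cdh22 (log2 fold change 0.33), Cdh23 (-0.49) and Pcdh17 (-0.26), and DESeq2 also called 0. Without library 2 of BL6 there was 1 call. Cdh23 stood at 15.8 and 22.1 CPM in BL6 and 13.7 and 12.2 CPM in DBA, with an adjusted p of 0.232 by edgeR. The most counted genes without a call in any unit were Pcdh7 with 1122 and 951 CPM in BL6 against 1058 and 1029 CPM in DBA, Cdh2 with 342 and 338 CPM against 347 and 353 CPM, Cdh4 with 255 and 229 CPM against 229 and 246 CPM, and Pcdh10 with 167 and 153 CPM against 152 and 174 CPM. In these sums over nuclei, fewer cells of a type and less RNA per cell cannot be told apart, and the share of NN nuclei ranged from 30.1% to 53.0% with both ends in different strains.

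In the class sums, excitatory neurons gave 2 calls among 27 genes, beside 9.65% of all genes. Cdh22 was higher in DBA, with 60.3 and 65.8 CPM in BL6 against 84.3 and 78.0 CPM in DBA (log2 fold change 0.39 ± 0.10 SE, adjusted p = 0.0294 by edgeR). Pcdh17 was lower, with 206 and 276 CPM in BL6 against 172 and 139 CPM in DBA (-0.61 ± 0.16, adjusted p = 0.0393 by edgeR). Inhibitory neurons gave none of 27, beside 8.62% of all genes, with 4 genes at an unadjusted p under 0.05 in edgeR and 0 called by DESeq2. Without library 2 of BL6 there was 1 call. The NN sum gave 1 of 28, beside 8.25%: Cdh10 was higher in DBA, with 580 and 591 CPM in BL6 against 754 and 688 CPM in DBA (0.41 ± 0.11, adjusted p = 0.0410 by edgeR). None of these 3 calls held without each library in turn. That of Cdh22 ended without library 2 of BL6 or library 2 of DBA (adjusted p up to 0.202), that of Pcdh17 without library 3 of BL6 or library 3 of DBA (up to 0.157), and that of Cdh10 without either DBA library (up to 0.415). Without library 2 or library 3 of BL6 the NN sum gave 2 and 6 calls.

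Whether a strain difference itself differed between classes was tested by an interaction term. No gene was called, either for inhibitory against excitatory neurons (0 of 27, beside 0.167% of all genes, 4 at an unadjusted p under 0.05) or for NN nuclei against neurons (0 of 29, beside 2.46%, 5 at an unadjusted p under 0.05), and DESeq2 called 0 as well. Pcdh17 came nearest, with a strain difference 0.44 ± 0.10 (SE) log2 units higher in NN nuclei than in neurons (edgeR, adjusted p = 0.0612). Without library 2 or library 3 of BL6, the count for NN nuclei against neurons was 1 and 4.

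Single cell types were tested next. Summed over 20 types, 33 of 410 tests of these genes were called (8.05%), 20 higher and 13 lower in DBA, beside 5.78% of tests of all genes (2.17% higher, 3.6% lower). Of 28 genes tested in at least 1 type, 12 were called in at least 1, which is 42.9%, beside 23.8% of all genes. A gene of the set was tested in a median of 17 types and any gene in a median of 13, and the part of this in the higher share was not tested. Most calls came from Inh-Tshz1 with 6 of 24 (beside 10.3% of all genes), NN-ODC with 5 of 19, all higher in DBA (beside 3.12% of genes higher there and 7.98% in either direction), Inh-Nxph2 with 4 of 25 (7.34%) and NN-OPC with 4 of 25 (6.29%). Exc-Tafa1 gave 3 of 24 (7.42%), Inh-Sst 2 of 22 (5.41%) and NN-Endo-VLMC 2 of 10 (5.81%). A single call came from each of Exc-Vwa5b1 (1 of 25, beside 10.6% of all genes), NN-Astro (1 of 25, 8.69%), NN-MGC (1 of 16, 5.37%), Inh-Htr3a (1 of 22, 3.2%), Exc-Ebf2 (1 of 21, 2.47%), Inh-Lamp5 (1 of 18, 1.76%) and Exc-Tfap2c (1 of 19, 0.974%). The median log2 fold change over the 410 tests was -0.0168, against -0.0001 for all genes. In NN-ODC the median was -0.1071 and only 7 of the 19 genes were above 0, although all 5 calls there were higher. The NN-ODC calls of Cdh10, Cdh19 and Pcdh15 also ended with scaling by total counts, with DESeq2 and with a block on library number. Of the 33 calls, 13 held without each library in turn, 16 were also called by DESeq2, and none changed direction in any setting. Without NN-Endo-VLMC there were 31 of 400. Markers of other cells shifted with strain in these columns: endothelial markers were lower in DBA without overlap in 14 of 14 neuronal types (13.5 to 95.3 CPM in BL6, 2.50 to 13.8 CPM in DBA), and oligodendrocyte markers in 13 of 14. Their part in the results was not tested.

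**Figure D2:**
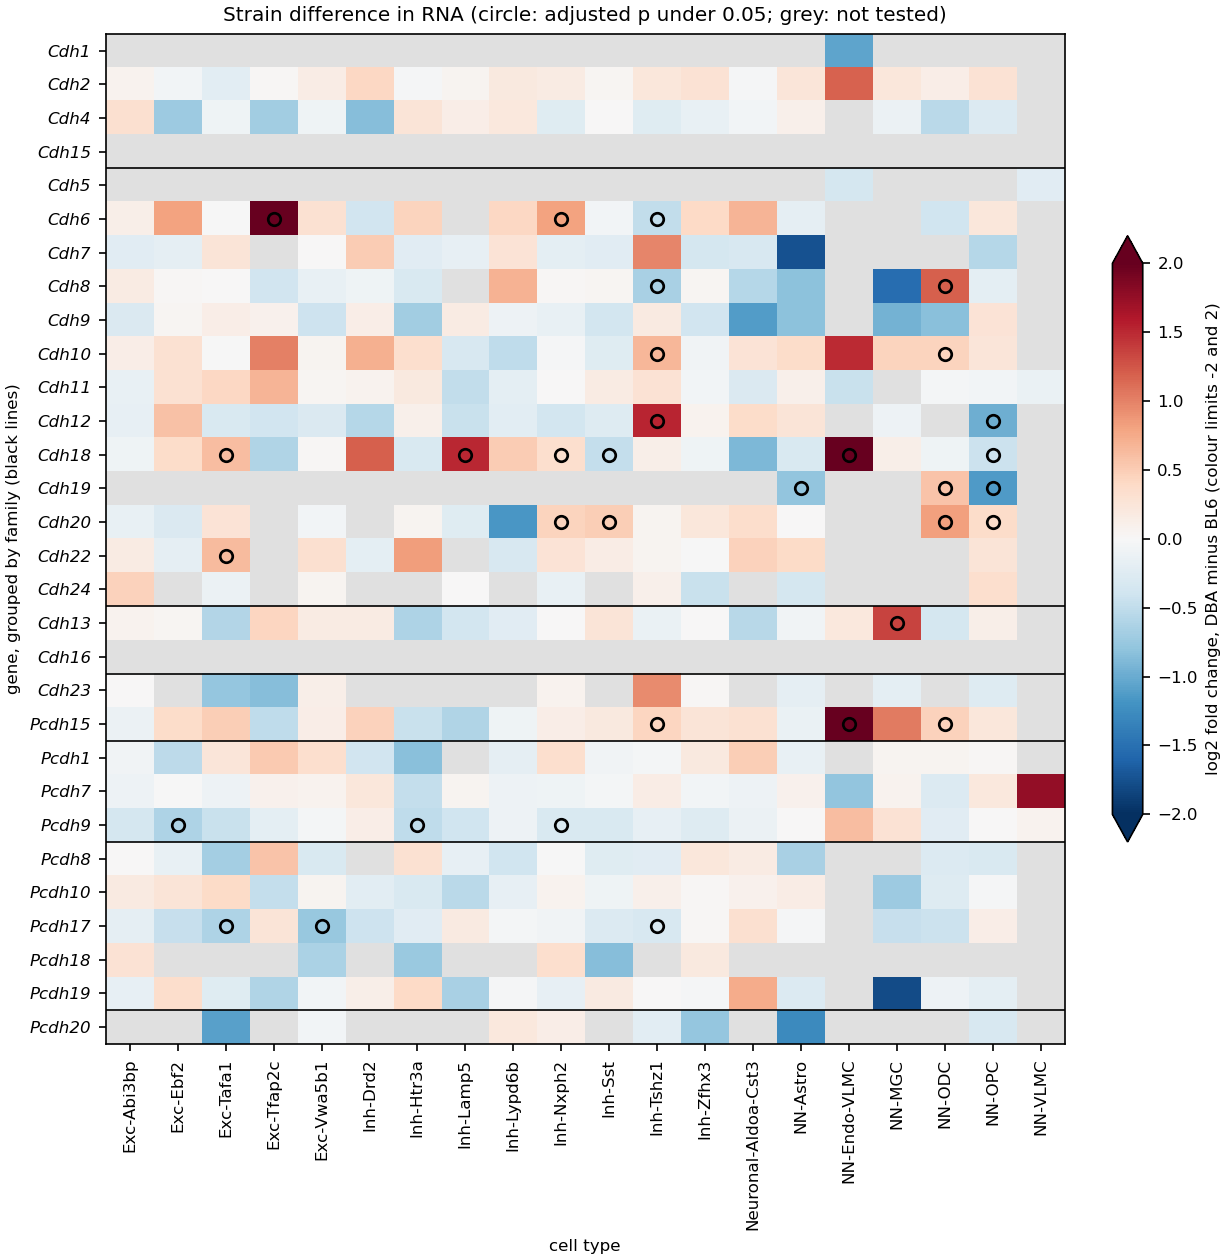
Strain difference in RNA of each gene (rows) in each cell type (columns), as log2 fold change of DBA minus BL6, with red for higher in DBA, blue for lower and grey for not tested. Circles mark the 33 calls with adjusted p under 0.05. Of these, 23 are at type II cadherins, and Cdh6, Cdh8, Cdh12, Cdh18 and Cdh19 carry circles on both red and blue.

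The type II cadherins had 23 calls in 183 tests (12.6%), 16 higher and 7 lower in DBA. The other genes had 10 in 227 (4.41%), and over all genes the share was 5.78%. The 183 tests are of 13 genes over types of the same 4 libraries, so they are not independent. Calls were uneven among these genes: Cdh18 had 4 higher and 2 lower and Cdh20 had 4 higher. Cdh5, Cdh7, Cdh9, Cdh11 and Cdh24 had none in any type. Cdh12 rose in Inh-Tshz1, with 33.7 and 28.3 CPM in BL6 against 70.5 and 103 CPM in DBA (log2 fold change 1.52 ± 0.16 SE, adjusted p = 1.47e-07 by edgeR). The strains did not overlap, and the call held without each library (adjusted p up to 4.62e-05). In NN-OPC the same gene fell, with 66.6 and 55.4 CPM in BL6 against 27.1 and 31.9 CPM in DBA (-0.98 ± 0.20, adjusted p = 0.0023 by edgeR, up to 0.0246 without 1 library and 0.0665 by DESeq2). Inhibitory markers in NN-OPC summed to 108 and 72.9 CPM in BL6 and 80.5 and 92.6 CPM in DBA, so they overlapped between the strains there. Excitatory markers there were at 24.9 and 21.6 CPM in BL6 and 12.2 and 17.9 CPM in DBA. Interneuron markers were at 75.05 and 48.4 CPM and 28.4 and 38.95 CPM, so both lists were lower in DBA without overlap. The part of these markers in the result was not tested. The strain difference of Cdh12 was 2.50 ± 0.22 log2 units larger in Inh-Tshz1 than in NN-OPC by an edgeR interaction term (adjusted p = 1.47e-25, beside 2.86% of genes called). This pair of types, like the 4 below, was chosen after the opposite calls were seen.

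Cdh8 went the other way in the same neurons. It fell in Inh-Tshz1, with 551 and 441 CPM in BL6 against 324 and 292 CPM in DBA (-0.65 ± 0.10, adjusted p = 7.68e-05 by edgeR, up to 0.00736 without 1 library). It rose in NN-ODC, with 43.7 and 22.7 CPM in BL6 against 77.8 and 66.0 CPM in DBA (1.20 ± 0.25, adjusted p = 0.00173, up to 0.0112 without 1 library). In NN-ODC the excitatory markers summed to 38.9 and 24.0 CPM in BL6 and 15.4 and 27.9 CPM in DBA, and the inhibitory markers to 66.4 and 37.6 CPM and 15.4 and 46.4 CPM. Both sums overlapped between the strains, and their part in the result was not tested. The interaction term was 1.89 log2 units between NN-ODC and Inh-Tshz1 (beside 2.14% of genes called).

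Cdh10 rose beside Cdh12 in Inh-Tshz1, with 227 and 242 CPM in BL6 against 350 and 367 CPM in DBA (0.66 ± 0.09, adjusted p = 4.27e-06 by edgeR, up to 0.000178 without 1 library). Its call in NN-ODC (0.45) ended without library 2 or 3 of BL6 or library 2 of DBA (adjusted p up to 0.452). The 4 Inh-Tshz1 columns held 244 to 622 nuclei, and their inhibitory markers summed to 598 and 546 CPM in BL6 and 516 and 484 CPM in DBA. Foxp2 and Tshz1 summed there to 1985 and 1782 CPM in BL6 and 1974 and 1928 CPM in DBA. The inhibitory markers were lower in DBA without overlap, and the naming markers overlapped. Oligodendrocyte markers in Inh-Tshz1 were at 114 and 104 CPM in BL6 and 78.0 and 62.1 CPM in DBA, and endothelial markers at 40.8 and 50.2 CPM and 9.32 and 6.39 CPM. Their part in the results of this type was not tested.

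Cdh6 rose in Inh-Nxph2, with 33.7 and 29.9 CPM in BL6 against 60.2 and 53.1 CPM in DBA (0.81 ± 0.14, adjusted p = 0.000858 by edgeR, up to 0.0168 without 1 library). It fell in Inh-Tshz1, with 139 and 136 CPM in BL6 against 110 and 81.9 CPM in DBA (-0.50 ± 0.12, adjusted p = 0.00646), a call that ended without library 3 of DBA (adjusted p = 0.300). The interaction term between these inhibitory types was 1.34 log2 units (beside 1.21% of genes called). In Exc-Tfap2c, Cdh6 had 2 and 1 counts in BL6 and 12 and 20 counts in DBA, and that call ended without 3 of the 4 libraries, all but library 3 of BL6 (adjusted p up to 0.539).

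Cdh18 had the most calls, 4 higher and 2 lower in DBA. In Inh-Lamp5 it rose from 56.4 and 61.8 CPM in BL6 to 191 and 135 CPM in DBA (1.51 ± 0.25, adjusted p = 0.00624 by edgeR, up to 0.00635 without 1 library). In those columns inhibitory markers summed to 1861 and 1610 CPM in BL6 and 2174.5 and 2483 CPM in DBA, oligodendrocyte markers to 110.5 and 99.4 CPM and 28.8 and 42.9 CPM, and endothelial markers to 86.3 and 53.0 CPM and 4.11 and 8.58 CPM; their part in the result was not tested. Its smallest adjusted p came from NN-Endo-VLMC, with 1 and 5 counts in BL6 and 48 and 44 counts in DBA, or 18.1 and 28.2 CPM against 266 and 392 CPM (3.73 ± 0.55, adjusted p = 0.00359). That type held 10 to 35 nuclei a column, and inhibitory markers there summed to 18.1 and 28.2 CPM in BL6 and 71.9 and 134 CPM in DBA, moving with Cdh18; their part in the result was not tested. In Exc-Tafa1 it was higher by 0.62, a call that ended without library 3 of BL6 or library 2 of DBA (adjusted p up to 0.150). In Inh-Nxph2 it was higher by 0.33 and in Inh-Sst it was lower (-0.47), and these calls ended without library 2 of DBA and library 2 of BL6, among others (adjusted p up to 0.234 and 0.528). In NN-OPC it was lower, with 391 and 388 CPM in BL6 against 298 and 253 CPM in DBA (-0.42 ± 0.12, adjusted p = 0.0242), and this call ended without any library but library 2 of DBA (up to 0.212). The interaction term between Inh-Lamp5 and NN-OPC was 1.90 log2 units (beside 0.351% of genes called).

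Cdh19 and Cdh20 differed in glia. Cdh20 rose in NN-ODC, where it is highest, with 568 CPM in both BL6 libraries against 1001 and 811 CPM in DBA (0.81 ± 0.14, adjusted p = 6.16e-05 by edgeR, up to 0.00138 without 1 library). Its other calls, all higher in DBA, were in NN-OPC (0.37), Inh-Nxph2 (0.44) and Inh-Sst (0.49). Each of them ended without library 2 of BL6, among others (adjusted p up to 0.452), and none was called by DESeq2. Cdh19 fell in NN-OPC, with 72.8 and 51.3 CPM in BL6 against 31.8 and 22.4 CPM in DBA (-1.14 ± 0.23, adjusted p = 0.00147, up to 0.0268 without 1 library). Oligodendrocyte markers in NN-OPC were higher in DBA without overlap, with 332 and 222 CPM in BL6 and 442 and 566 CPM in DBA. They moved against Cdh19 and with Cdh20 in that type, and their part in either result was not tested.

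In NN-Astro, Cdh19 fell from 194 and 203 CPM in BL6 to 124 and 85.7 CPM in DBA (-0.79 ± 0.16, adjusted p = 0.00543 by edgeR), a call that ended without library 3 of DBA (adjusted p = 0.0969). Oligodendrocyte markers fell along with it there, from 207 and 176 CPM to 63.7 and 70.0 CPM, and their part in the result was not tested. In NN-ODC, Cdh19 was higher in DBA, with 340 and 386 CPM in BL6 against 572 and 407 CPM in DBA (0.58 ± 0.16, adjusted p = 0.0175), and this call ended without library 2 of BL6 or library 2 of DBA (up to 0.433). The interaction term between NN-ODC and NN-OPC was 1.73 log2 units (beside 2.23% of genes called). Cdh22 rose in Exc-Tafa1, with 61.0 and 61.9 CPM in BL6 against 98.6 and 85.8 CPM in DBA (0.63 ± 0.13, adjusted p = 0.0136), and the call ended without library 2 of DBA (0.0607). Excitatory markers in Exc-Tafa1 stood at 310.1 and 356.5 CPM in BL6 and 385 and 436 CPM in DBA, and endothelial markers at 64.6 and 58.5 CPM and 5.15 and 4.31 CPM. Their part in the result was not tested.

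**Figure D3:**
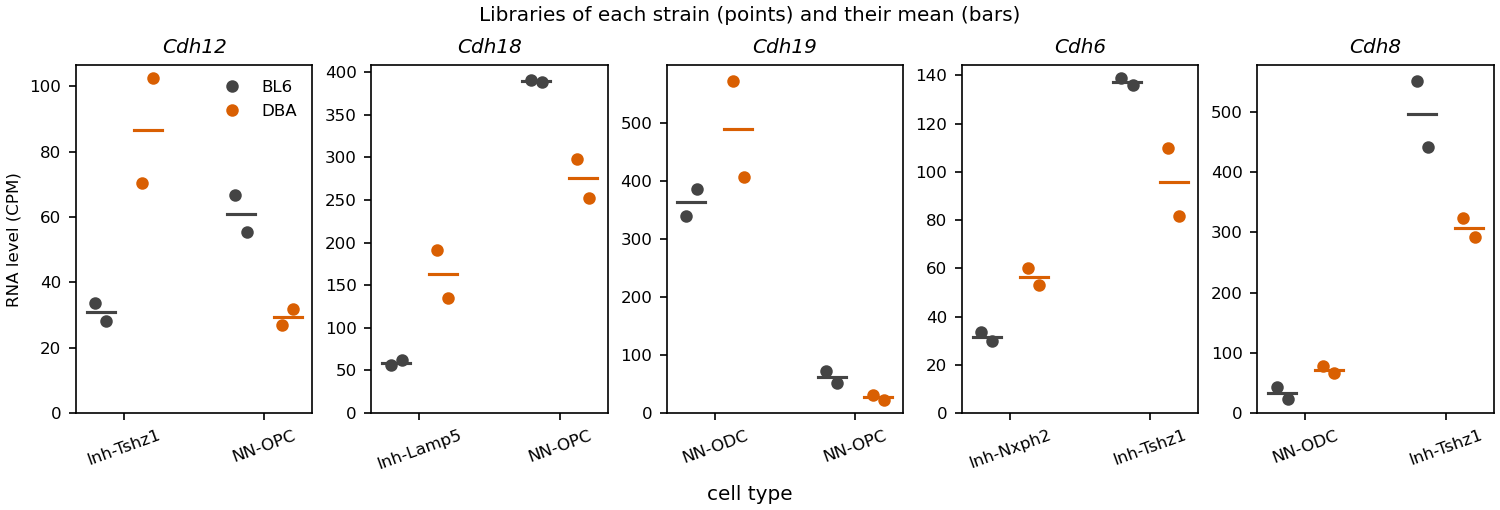
RNA level in CPM of the 5 genes called in opposite directions, each in the 2 cell types compared by the interaction term. Points are the 2 libraries of BL6 (grey) and DBA (orange) and bars their means; in every panel the strains do not overlap in either type, with DBA above BL6 in the left type and below it in the right.

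All 5 genes called both higher and lower were type II cadherins. They were 5 of the 12 genes called in a type, beside 6.69% of all genes called in a type. All 5 interaction terms stayed past the threshold without each library in turn. Since the types were picked for opposite calls, the terms measure a difference already chosen.

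Of the other genes, Cdh13 rose in NN-MGC, with 37.7 and 29.9 CPM in BL6 against 82.8 and 87.0 CPM in DBA, from 23 to 49 counts a library (1.35 ± 0.27, adjusted p = 0.00126 by edgeR, up to 0.0136 without 1 library and 0.0694 by DESeq2). Excitatory markers in NN-MGC summed to 57.5 and 49.4 CPM in BL6 and 45.6 and 53.4 CPM in DBA. Inhibitory markers there were at 99.5 and 57.2 CPM in BL6 and 27.0 and 75.1 CPM in DBA, and both lists overlapped. Microglial markers were lower in DBA without overlap, at 5904 and 6002 CPM in BL6 and 4196 and 3996 CPM in DBA. The part of these markers in the Cdh13 result was not tested. Pcdh15 rose in Inh-Tshz1, with 857 and 872 CPM in BL6 against 1163 and 1112 CPM in DBA (0.44 ± 0.08, adjusted p = 0.00057 by edgeR, up to 0.00729 without 1 library). It was also called higher in NN-ODC (0.46) and in NN-Endo-VLMC (2.89, from 0 and 8 counts in BL6 and 25 and 38 in DBA). The first ended without library 2 or 3 of BL6 or library 2 of DBA (adjusted p up to 0.263), the second without library 3 of DBA (0.0579). Inhibitory markers moved with Pcdh15 in NN-Endo-VLMC as given above.

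The 6 calls of delta protocadherins were all lower in DBA. They were 3 of 57 tests of delta-1 genes (5.26%) and 3 of 76 of delta-2 genes (3.95%). Over all genes 5.78% of tests were called, 3.6% as lower. Pcdh17 fell in Exc-Vwa5b1, with 125 and 159 CPM in BL6 against 94.8 and 71.0 CPM in DBA (-0.76 ± 0.13, adjusted p = 3.89e-05 by edgeR, up to 0.0066 without 1 library). In Exc-Vwa5b1 excitatory markers stood at 132.5 and 138 CPM in BL6 and 204 and 198.5 CPM in DBA, oligodendrocyte markers at 138 and 128 CPM and 92.4 and 100.5 CPM, and endothelial markers at 43.3 and 35.8 CPM and 9.04 and 6.96 CPM; their part in the result was not tested. In Exc-Tafa1 Pcdh17 fell by 0.62 on the log2 scale, a call that ended without library 3 of either strain (adjusted p up to 0.0836), and in Inh-Tshz1 by 0.32, a call that ended without any 1 library (up to 0.156). Pcdh9 fell in Exc-Ebf2, with 2607 and 3323 CPM in BL6 against 1927 and 1913 CPM in DBA (-0.62 ± 0.14, adjusted p = 0.0184), in Inh-Htr3a by 0.51 and in Inh-Nxph2 by 0.31. None of the 3 was called by DESeq2, and each ended without any of 3 libraries, the exception being library 2 of BL6 for Exc-Ebf2 and Inh-Htr3a and library 2 of DBA for Inh-Nxph2 (adjusted p up to 0.378). In NN-ODC, where Pcdh9 is highest, BL6 stood at 14152 and 13309 CPM and DBA at 11075 and 10122 CPM, which was not called (-0.23, adjusted p = 0.240). Oligodendrocyte markers were also lower in the DBA neurons, with 109 and 103 CPM in BL6 and 60.5 and 61.9 CPM in DBA for Inh-Nxph2, 93.1 and 104 CPM and 90.5 and 59.5 CPM for Exc-Ebf2, and 109 and 101 CPM and 82.4 and 46.1 CPM for Inh-Htr3a. Their part in the Pcdh9 results was not tested.

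The partners of cadherins were taken from a list of 37 genes with the catenins, the proteases that cut cadherins and cadherins outside the naming rule. Over all nuclei 1 was higher and 1 lower in DBA, and over types 15 tests were higher and 21 lower of 558, or 6.45% beside 5.78% of tests of all genes and 3.53% without Ctnnd1. Ctnnd1, the p120-catenin that binds the tail of classical cadherins next to the membrane, made up 17 of the 21. It was called lower in 17 of 19 types tested, with fold changes from -2.95 to -1.51 on the log2 scale, and over all nuclei it stood at 70.7 and 78.8 CPM in BL6 against 17.5 and 18.2 CPM in DBA (-2.02 ± 0.11, adjusted p = 0.000138 by edgeR). Psen2, a subunit of gamma-secretase, was higher over all nuclei, at 10.1 and 9.68 CPM against 16.0 and 14.9 CPM (0.68 ± 0.14, adjusted p = 0.0456).

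Chromatin was examined next at the genes themselves, on the mouse build mm10. The ATAC table had 1294 peaks within 2 kb of the RefSeq span of 29 of the genes, from 1 at Cdh16 and Cdh24 to 165 at Pcdh15 and 200 at Cdh13, and 0 at Cdh19, whose RNA was highest in glia. RefSeq start windows, from 250 bases before to 50 bases after a start, were at hand for 21 genes, and 20 of these had a peak over the window. For 18 genes a window lay within 2.73 kb of the outer end of the gene. Those of Cdh12, Cdh18 and Pcdh15 lay 663, 488 and 726 kb inside it, so they are internal starts, and no window was at hand for the outer starts of these 3 genes. Stretches of 250 bases before the listed start are shown for 4 of the 5 genes that differed in opposite directions, because their peaks over these windows were not called between the strains while their RNA was. They are from RefSeq on GRCm38.p6, 5′ to 3′ on the strand of the gene, with each CG dinucleotide in capitals. Cdh6 is on the minus strand at chr15:13173676-13173925, Cdh8 on the minus strand at chr8:99416472-99416721, Cdh12 on the plus strand at chr15:21111202-21111451 and Cdh18 on the plus strand at chr15:23036213-23036462.
Cdh6: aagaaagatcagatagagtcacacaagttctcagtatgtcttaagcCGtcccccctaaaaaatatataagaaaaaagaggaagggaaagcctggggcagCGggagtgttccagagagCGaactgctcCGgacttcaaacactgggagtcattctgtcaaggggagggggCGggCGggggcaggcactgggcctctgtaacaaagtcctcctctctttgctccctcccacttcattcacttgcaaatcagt
Cdh8: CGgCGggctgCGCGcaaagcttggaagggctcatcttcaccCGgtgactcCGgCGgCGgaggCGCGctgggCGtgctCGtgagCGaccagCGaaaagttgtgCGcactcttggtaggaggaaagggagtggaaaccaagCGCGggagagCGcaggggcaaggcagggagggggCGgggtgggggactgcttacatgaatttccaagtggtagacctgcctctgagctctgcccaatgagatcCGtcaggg
Cdh12: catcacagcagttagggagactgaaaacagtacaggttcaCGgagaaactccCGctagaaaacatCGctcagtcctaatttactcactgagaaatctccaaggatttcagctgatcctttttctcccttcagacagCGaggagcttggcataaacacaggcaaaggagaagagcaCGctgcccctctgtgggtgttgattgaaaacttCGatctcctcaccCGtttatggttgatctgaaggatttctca
Cdh18: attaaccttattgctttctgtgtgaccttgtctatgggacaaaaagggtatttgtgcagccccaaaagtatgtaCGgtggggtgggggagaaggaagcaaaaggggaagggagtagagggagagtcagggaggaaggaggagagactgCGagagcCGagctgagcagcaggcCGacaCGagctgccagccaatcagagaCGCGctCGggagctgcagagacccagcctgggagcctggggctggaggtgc
The stretch of Cdh8 held 20 CG dinucleotides and had 64.4% G and C, while those of Cdh6, Cdh12 and Cdh18 held 6, 7 and 8. Over the 24 start windows of these genes the median was 16 CG, against 7 over all 32851 windows in the table, and 62.5% of them had 10 or more CG against 43.5% of all. The letters TATAAA, searched on both strands, were in 2 of the 24 windows (8.33%), those of Pcdh8 and Pcdh15, against 13.6% of all.

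Accessibility and RNA varied together across cell types for most of the genes. Over the 15 types tested in both assays, and the 24 genes with a peak and at least 1000 RNA counts, the correlation of log2(CPM + 1) between the summed peaks of a gene and its RNA had a median of 0.799, from 0.289 for Pcdh1 to 0.961 for Cdh8. At the peak over the start window the median was 0.739 for 18 genes, from 0.201 for Cdh22 to 0.940 for Pcdh9. The points are types that share libraries, glia is represented among them only by NN-OPC and NN-MGC, and the values are a description. The type of highest RNA was also that of highest summed accessibility for 10 of the 24.

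Cdh8 shows the pattern at a single gene. Its start peak had 49.2 ± 3.63 CPM in Inh-Tshz1 and 49.0 ± 4.32 CPM in Inh-Zfhx3, where its RNA was highest, and 17.3 ± 4.50 CPM in Inh-Lamp5 and 15.8 ± 4.94 CPM in NN-OPC, where its RNA was 15.4 and 26.3 CPM. The start of Cdh20 had 32.4 ± 15.5 CPM in NN-OPC and 23.9 ± 8.50 CPM in Inh-Lamp5, against 6.75 ± 1.51 CPM in Inh-Drd2, where its RNA was 3.28 CPM. The start of Pcdh9 had 82.1 ± 26.1 CPM in NN-OPC and 19.5 ± 6.44 CPM in NN-MGC. Cdh22 did not follow the pattern: its start had 42.6 ± 1.87 CPM in Inh-Tshz1 and 38.2 ± 9.17 CPM in NN-MGC, while its RNA was 86.1 and 7.04 CPM.

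**Figure D4:**
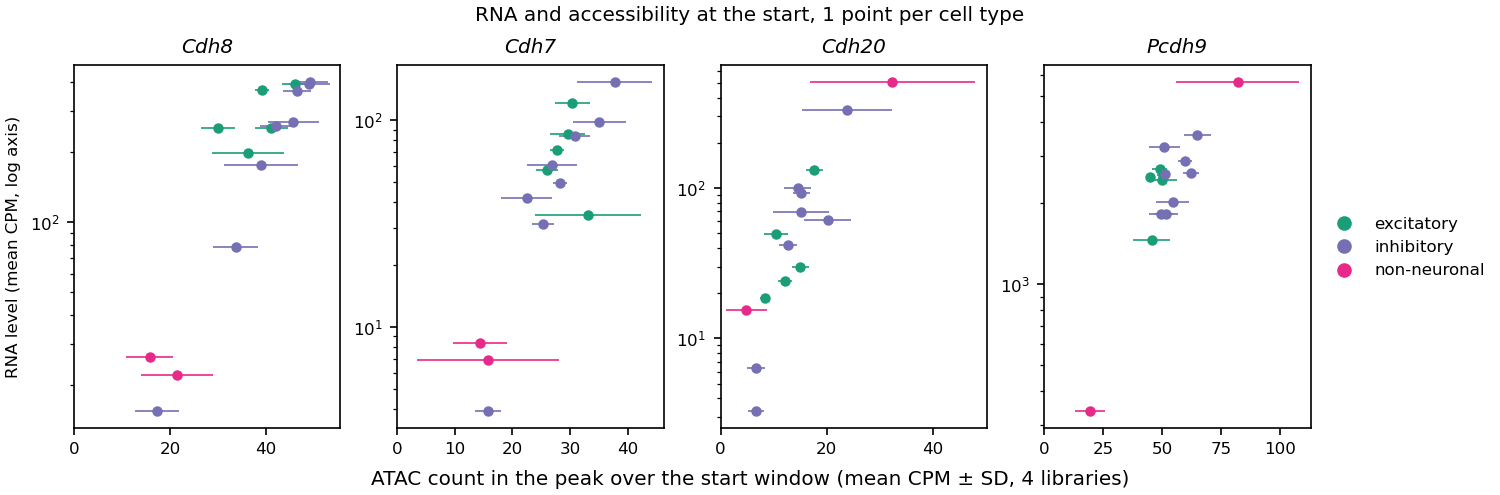
RNA level (mean CPM, log axis) against the ATAC count in the peak over the start window (mean CPM ± SD over 4 libraries), 1 point for each of 15 cell types, for the 4 genes with the highest correlation at the start, Cdh8, Cdh7, Cdh20 and Pcdh9. For Cdh8, Inh-Lamp5 had 17.3 CPM in the peak and 15.4 CPM of RNA, and Inh-Tshz1 49.2 CPM in the peak and 401.5 CPM of RNA.

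No peak over a listed start was called between the strains. Of 20 such peaks tested over all nuclei none was called by edgeR, beside 6.44% of all peaks, with 1 at an unadjusted p under 0.05, and log2 fold changes ran from -0.21 for Cdh15 to 0.21 for Cdh24. Of these, 19 were above 0. The raw ratio of DBA to BL6 was above 1 for 17 of the 20 and for 65.6% of the 14114 peaks over any gene's start window, against 41.3% of other peaks. In the excitatory and inhibitory sums none was called either, nor in any of 268 tests over single types, of which 18 had an unadjusted p under 0.05. This held where the RNA differed: in Inh-Tshz1 the start of Cdh8 had 47.4 and 52.2 CPM in BL6 and 45.0 and 52.3 CPM in DBA, and the internal start of Cdh12 had 2.67 and 5.24 CPM in BL6 and 4.66 and 4.54 CPM in DBA. At these counts a small difference at the start was not detectable.

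Among all peaks at these genes, all calls lay outside the listed starts. Over all nuclei 36 of 1294 were called, 21 higher and 15 lower in DBA, which is 2.78% beside 6.44% of all peaks. The excitatory sum gave 26 of 1292 (2.01%, beside 4.93%), the inhibitory sum 17 of 1250 (1.36%, beside 3.47%) and single types together 38 of 5111 tests (0.744%, beside 2.04%). Among types, Exc-Tafa1 gave 12 of 1143 (beside 3.28%), Inh-Tshz1 10 of 589 (2.93%), Exc-Vwa5b1 8 of 668 (3.13%), Inh-Zfhx3 4 of 470 (2.21%) and Inh-Nxph2 1 of 640 (1.52%). The peaks of these genes had a median of 1.28 CPM and all peaks 1.45 CPM, and the part of this in the lower rate was not tested. The calls over all nuclei lay at 11 of the 29 genes with a peak. Peaks of Pcdh7 and Pcdh17 were called only in a class sum or a single type. The count of 36 over all nuclei fell without a BL6 library and rose without library 3 of DBA, so this count rests on the libraries used. The share of all peaks called in those runs was not set beside it.

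Cdh4 and Cdh18 held the most called peaks. Cdh4, whose RNA was called in no unit, had 9 of 98, 5 higher and 4 lower in DBA. Its peak at chr2:179526613-179527340 had 3.17 and 3.43 CPM in BL6 against 1.48 and 1.86 CPM in DBA (-0.95 ± 0.16, adjusted p = 9.07e-08 by edgeR). It was also lower in Inh-Tshz1 (-1.37), Exc-Tafa1 (-1.32), Inh-Nxph2 (-1.34) and Inh-Zfhx3 (-1.55). The calls over all nuclei and in Inh-Tshz1 held without each library (adjusted p up to 0.00188 and 0.0205), while those in the other 3 types ended without library 3 of BL6, and those in Inh-Nxph2 and Inh-Zfhx3 without others too (up to 0.506). A peak at chr2:179653890-179654113 had 0.904 and 1.02 CPM in BL6 against 4.70 and 4.82 CPM in DBA in Exc-Vwa5b1 (2.32 ± 0.34, adjusted p = 1.26e-07 by edgeR), and this held without each library.

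Cdh18 had 6 of 89, 4 higher and 2 lower. Its peak at chr15:23104082-23105402, inside the gene, had 2.31 and 2.82 CPM in BL6 against 4.07 and 5.38 CPM in DBA (0.91 ± 0.13, adjusted p = 1.35e-09 by edgeR). In Exc-Tafa1, where Cdh18 RNA was also higher in DBA, it rose from 2.56 and 3.46 CPM to 8.34 and 11.4 CPM (1.74 ± 0.20, adjusted p = 2.32e-08). Both calls held without each library (adjusted p up to 0.0021 and 1.17e-05). A second peak, at chr15:22717379-22718001, was higher by 0.98 over all nuclei (adjusted p = 1.17e-06), and this also held.

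Fewer peaks were called at the other genes. Pcdh18 had 1 of 5, at chr3:49754030-49754318, with 1.08 and 0.978 CPM in BL6 against 2.23 and 2.03 CPM in DBA (1.10 ± 0.19, adjusted p = 2.26e-07 by edgeR, up to 0.00141 without 1 library). Pcdh9 had 4 of 132, and the one with the smallest p, at chr14:93700663-93702046, was lower in DBA, with 4.78 and 4.39 CPM against 2.44 and 3.19 CPM (-0.67 ± 0.13, adjusted p = 2.55e-05, up to 0.0211 without 1 library). Cdh7 had 3 of 16, and its peak at chr1:110059979-110060701 was lower (-0.94), a call that ended without library 2 of DBA (adjusted p = 0.0867). In Inh-Tshz1, a peak of Cdh20 at chr1:104913392-104914331 rose from 2.27 CPM in both BL6 libraries to 6.82 and 6.96 CPM in DBA (1.61 ± 0.27, adjusted p = 6.87e-06, up to 0.00243 without 1 library), in a type where Cdh20 RNA was 6.37 CPM. Cdh12 and Cdh20 had 3 called peaks each over all nuclei, Cdh13, Cdh22 and Pcdh15 had 2 each and Cdh2 had 1. Cdh6 and Cdh8 had none of 29 and none of 61.

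**Figure D5:**
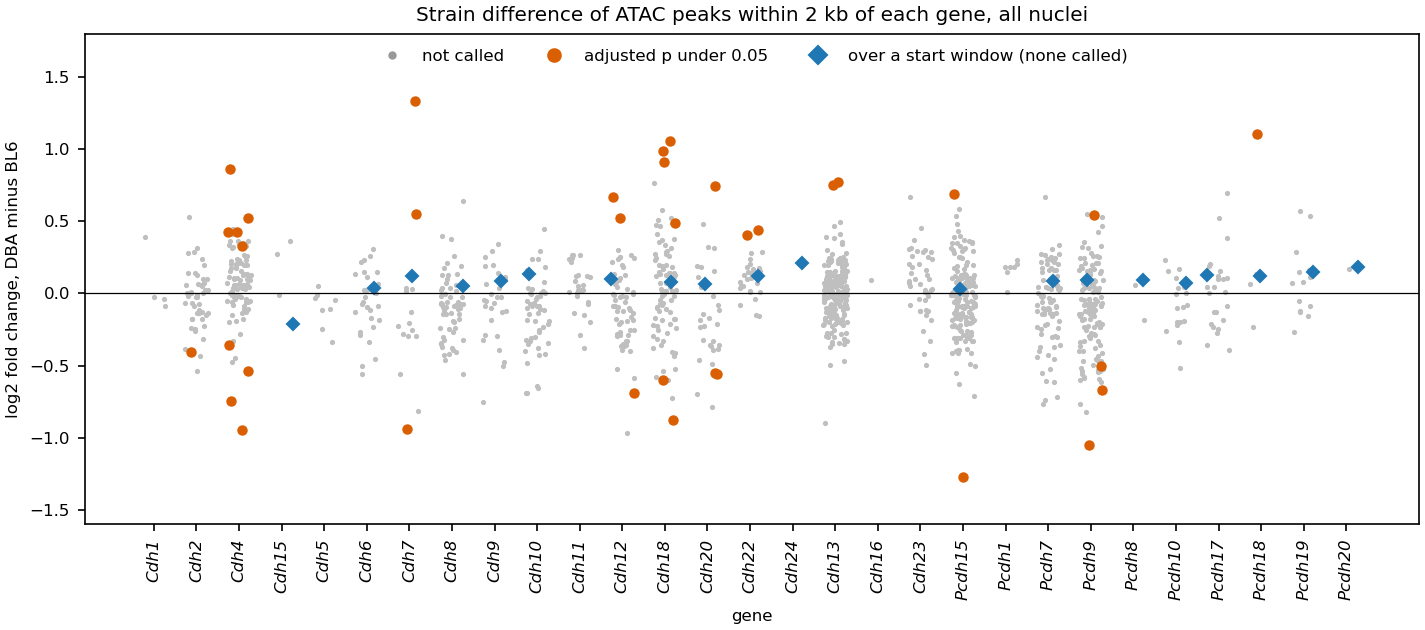
Strain difference of the 1294 ATAC peaks over all nuclei, as log2 fold change of DBA minus BL6, with 1 column of points for each of 29 genes. Orange points are the 36 calls, grey points were not called, and blue diamonds are the 20 peaks over a start window, which lie between -0.21 and 0.21.

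RNA and chromatin calls were set side by side in each type. Of the 33 RNA calls, 22 were in types where peaks of the gene were tested, and 2 of 385 such tests were called (0.519%), beside the 0.744% of all peak tests of these genes over types. Of these, 1 was called in the direction of the RNA, the peak of Cdh18 in Exc-Tafa1 given above. Another went against it: at Pcdh17 in Exc-Vwa5b1 a peak at chr14:84444280-84446336 rose from 21.8 and 24.6 CPM to 26.5 and 33.1 CPM (0.38 ± 0.11, adjusted p = 0.0408 by edgeR) while the RNA fell, and this call ended without any of 3 libraries (adjusted p up to 0.625). The other 11 RNA calls were in types with no tested peak of the gene, NN-ODC among them, so accessibility there was not compared.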

How the data were processed

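Nuclei of the RNA libraries were sorted as 75% NeuN-positive and 25% other, and those of the ATAC libraries on a DNA dye alone, per the labels' protocols. Seurat 4.0.5, Cell Ranger 6.0.2, Cell Ranger ATAC 2.0.0 and the build mm10 are listed, with no role, per the submitters' processing notes. The deposited tables hold raw counts, 1 column per library and type as added up by the authors, for 34039 genes and 271433 peaks, and the number of nuclei behind each column. How types were assigned and doublets treated is not given in the sources used here, and the strand setting of gene counting is not given either. The 24 samples include 16 methylation libraries of 8 strains, not analysed here.

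A column entered a test with 10 or more nuclei and 50000 RNA or 100000 ATAC counts in each of the 4 libraries. Each unit (all nuclei, a class sum, a cell type) was fitted separately with edgeR 4.0.16 (limma 3.58.1, R 4.3.3): TMM scaling, filterByExpr with a minimum count of 10, the robust quasi-likelihood test and Benjamini-Hochberg adjustment over all genes or peaks of the unit, called at an adjusted p under 0.05. RNA tests used the 22155 genes with 10 or more counts in each strain. Fold changes of genes with few counts depend on the prior count. Peaks within 2 kb of a RefSeq gene span (GRCm38.p6) were assigned to the gene. On simulated counts, the RNA test of a single type recovered 4% to 76% of genes changed by 2-fold. For those changed by 4-fold it was 35% to 97%, and both were lowest in NN-Endo-VLMC. The share of false calls ran from 0% in NN-Endo-VLMC to 7.87% in Inh-Nxph2 and 7.88% in NN-OPC. The simulated spread came from a trend over genes and not from each gene.

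Alternatives were other scaling, filters and gene sets, DESeq2 1.42.0 for RNA, a block on library number, each library left out, and other peak distances. Every gene was described by its highest type. Strain values were given for each called gene, peaks by smallest p, and the 4 most counted uncalled genes. The genes, lists and rules were chosen with earlier results of these data known.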

Additional observations from a re-analysis of the deposited data

Results flagged for a closer look

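In 5 genes the strain difference in RNA itself differed between a pair of cell types, by a term for strain and cell type with each library as a block. The pairs were chosen after opposite calls were seen, as the types with the smallest p in each direction among those with 200000 or more counts in every column. The difference of the log2 fold changes was 2.50 for Cdh12 (Inh-Tshz1 minus NN-OPC), 1.90 for Cdh18 (Inh-Lamp5 minus NN-OPC), 1.73 for Cdh19 (NN-ODC minus NN-OPC), 1.34 for Cdh6 (Inh-Nxph2 minus Inh-Tshz1) and 1.89 for Cdh8 (NN-ODC minus Inh-Tshz1). The adjusted p from edgeR was 1.47e-25, 5.23e-05, 9.51e-07, 3.38e-06 and 4.04e-07 in that order. Leaving out 1 library in turn kept the direction of all 5, with values from 1.19 (Cdh6 without library 3 of DBA) to 2.63 (Cdh12 without library 2 of DBA). As the pairs were picked for opposite calls in the same libraries, neither these p-values nor the runs without 1 library are an independent test.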

How the results depend on the processing

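None of the 36 RNA calls changed direction under any setting, and 11 of the 33 calls in types held under every one. DESeq2 gave 17 calls in types, 1 in the excitatory sum and 2 in the NN sum. Testing all genes of the table gave 1 call in the inhibitory sum and 1 for NN nuclei against neurons, and RLE factors also gave 1 for the latter. Without 1 library in turn, the counts ranged from 0 to 1 over all nuclei, 1 to 2 in the excitatory sum, 0 to 1 in the inhibitory sum, 0 to 6 in the NN sum, 30 to 35 in types and 0 to 4 for NN nuclei against neurons. For peaks they ranged from 11 to 56 over all nuclei, 6 to 42 in the excitatory sum, 4 to 27 in the inhibitory sum and 13 to 58 in types. The cause of these shifts was not tested. Shares of all genes or peaks called under these settings, or with the blocks below, are not given, so these counts have no background beside them.

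Library numbers are not known to pair the samples and were not taken to do so. Same-numbered deviations had correlations of -0.414, -0.066, -0.007 and -0.166 in RNA (all nuclei, excitatory, inhibitory, NN). These values cannot tell whether libraries were paired by number, with crossed numbers or not at all. With the replicate block the RNA counts were 0 over all nuclei, 0 in the excitatory sum, 1 in the inhibitory sum, 1 in the NN sum and 43 in types, and the ATAC counts 28, 29, 17 and 49. With crossed numbers, added after seeing the data, the block gave 3 RNA calls over all nuclei and 0 in the NN sum. Without NN-Endo-VLMC, also added then, there were 31 calls in types. ATAC depth limits glia, with 17 to 41 nuclei a library in NN-OPC.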
